A study of Mus musculus with 8 samples.

Results

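Transcripts of 10 ephrins and Eph receptors were measured in keratinocytes from mouse skin: the ligand genes Efna1, Efna3, Efna5, Efnb1 and Efnb2 and the receptor genes Epha1, Epha2, Epha4, Ephb3 and Ephb4. They were picked by symbol from the 24421 gene symbols counted in each library, and all 10 were found. The list was drawn up with the control and knockout values of these libraries already known. The differences between the genotypes in these 10 genes are therefore given as a description, without p-values. Bulk RNA was sequenced from 8 libraries. The 4 control libraries came from InvEE mice with both Hmgb1 alleles floxed and no Cre (genotype InvEE K5 Cre- HMGB1 fl/fl). The 4 knockout libraries came from InvEE mice with the same floxed alleles and Cre under the keratin 5 promoter (InvEE K5 Cre+ HMGB1 fl/fl). Both genotypes had the strain background CBA x C57Bl/6J. Both carry the InvEE transgene, an activated form of the kinase MEK1 driven by the involucrin promoter in differentiating keratinocytes, so no library stands for unmodified skin. K5-Cre acts in basal keratinocytes and passes the deletion to their descendants, and only the knockouts carried it, so effects of Cre and of the loss of Hmgb1 cannot be told apart. The sources used here give neither the age of the mice nor the state of the skin. The replicates are numbered but not stated to be separate animals, so the spread between libraries may be partly technical.

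Ephrins and Eph receptors signal between touching cells. Ephrin-A ligands are held in the membrane by a lipid anchor and ephrin-B ligands by a transmembrane segment with a signalling tail, while the Eph proteins are receptor tyrosine kinases. A-class receptors mostly bind ephrin-A and B-class receptors mostly bind ephrin-B. EphA4 crosses the classes by binding ephrin-B2 as well, and EphB4 binds ephrin-B2 almost alone. Signals run both ways, into the receptor cell and into the ligand cell, and usually change adhesion, movement and tissue boundaries. In epidermis, EphA2 with ephrin-A1 is known for its part in keratinocyte differentiation and junctions, and B-class signalling for its part in the proliferation of progenitor cells.

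Efnb2 was lower in all 4 knockout libraries than in any control, at 0.521 times the control level. Epha4, a receptor of ephrin-B2, had a knockout mean 2.17-fold the control mean, but with a wide spread: 2 knockout libraries were far above the controls and 1 lay among them. Ephb3 was modestly higher in every knockout library than in every control. The other 7 genes overlapped between the genotypes. Over all 13016 tested genes, 17% did not overlap. The targeted gene Hmgb1 was at 565 to 615 CPM (reads per 1e6 mapped to genes, with library sizes scaled by TMM) in controls and at 113 to 126 CPM in knockouts.

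Library totals over genes ran from 30506676 to 34229030 counts. The 10 genes had 657 to 11417 reads each per library, so their counting error was at most 3.9% and the spread between libraries is the larger error. Y-linked genes had 6110 to 6743 reads in knockout replicate 1 and in control replicates 2 and 3, and 0 to 51 reads in the other 5 libraries, so sex is unevenly spread over the genotypes. The 9 keratinocyte markers were all present and summed to 54280 to 65204 CPM in controls and 66506 to 73669 CPM in knockouts. Krt10 (means 5094 and 9022 CPM) and Cdh1 (1097 and 1746 CPM) were called higher. Krt1, Dsp, Dsg3 and Sfn had higher knockout means but were not called. Krt5 (23793 and 24214 CPM), Krt14 (17727 and 17438 CPM) and Trp63 (791 and 775 CPM) hardly differed, so the higher sum does not hold for every marker.

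**Figure D1:**
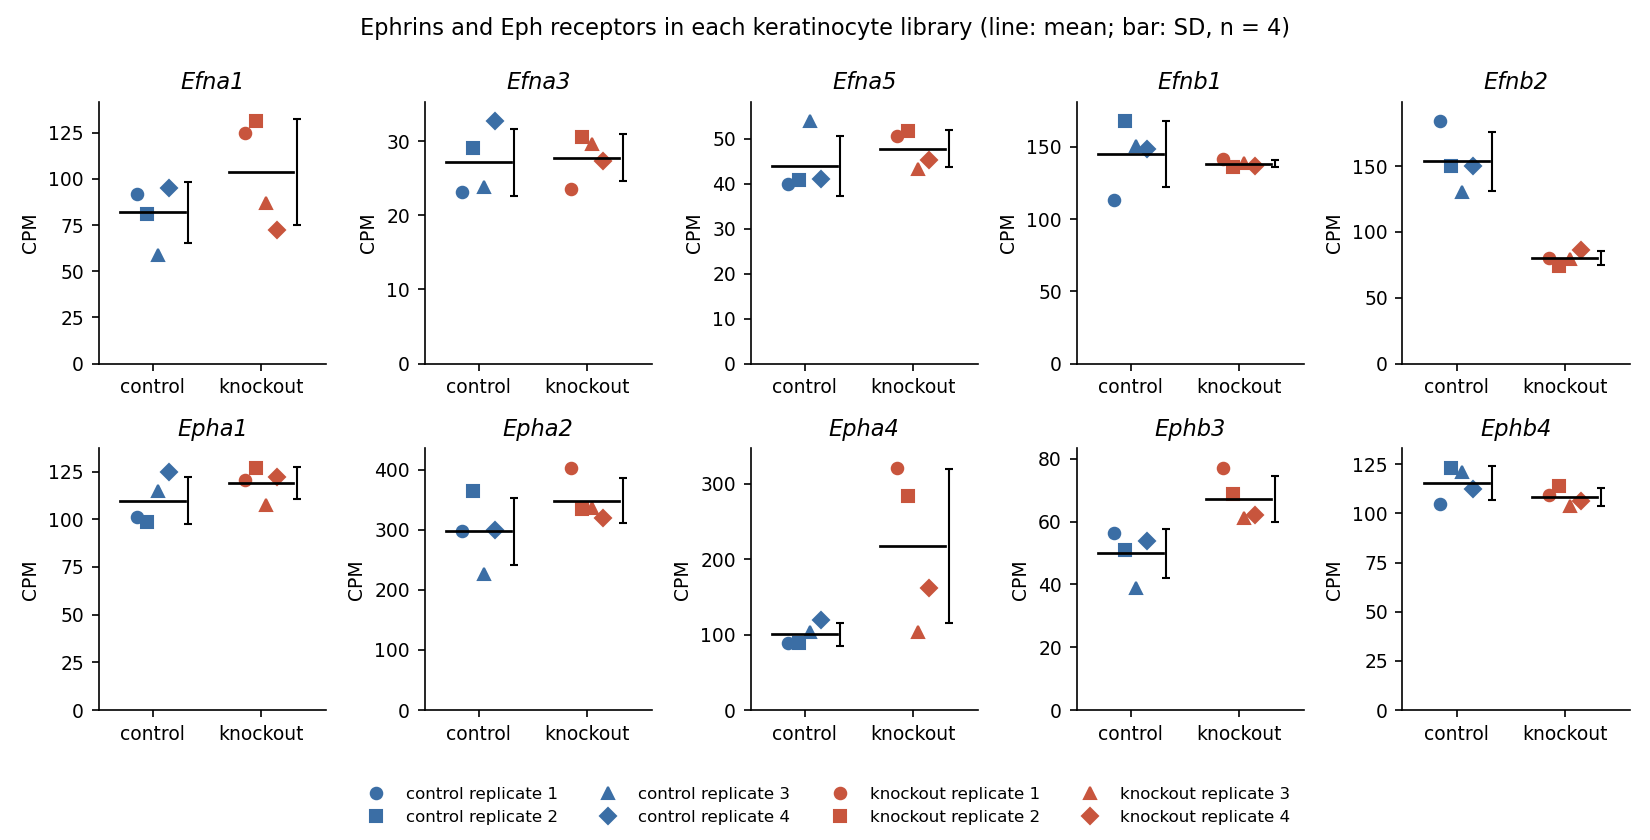
CPM of the 10 genes in each of the 8 libraries, with control in blue and knockout in red and 1 marker shape per replicate number. Lines are means and bars are SD (n = 4); each axis starts at 0. The knockout points of Efnb2 lie at 74.2 to 86.6 CPM, below the controls at 130 to 184 CPM, and the knockout points of Epha4 are spread from 104 to 321 CPM.

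Of the 10 genes, 1 was past an adjusted p of 0.05 by edgeR's quasi-likelihood test, in the direction of lower in the knockout, and 0 were past it as higher. Over all 13016 tested genes the same rule called 8.87%, with 4.54% lower and 4.33% higher. These were 563 higher and 591 lower genes, and 370 higher and 997 lower with library totals in place of TMM. An unadjusted edgeR p under 0.05 was reached by 3 of the 10 genes and by 26.2% of all tested genes. DESeq2 placed 3 of the 10 (Efnb2, Epha4 and Ephb3) and 14.1% of all 14255 genes it tested past its adjusted threshold. The libraries of the genotypes did not overlap for 2 of the 10 genes, against 17% of all tested genes. Since this contrast helped to choose the genes, nothing is read from these counts. The median log2 fold change (knockout minus control) was 0.12 for the 10 genes, with 7 above 0 and 3 below, and -0.02 for all tested genes.

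Efnb2 encodes ephrin-B2, the ligand shared by the B-class receptors and EphA4. It lies on chromosome 8, 8617434 to 8661242, minus strand (mm10, GENCODE). Its level was 184, 150, 130 and 150 CPM in control replicates 1 to 4 and 79.8, 74.2, 79.8 and 86.6 CPM in knockout replicates 1 to 4. The lowest control library was well above the highest knockout library. The control mean was 154 ± 22.3 CPM and the knockout mean 80.1 ± 5.05 CPM (SD, n = 4 each). The log2 fold change was -0.94 (SE 0.11). Of the 13016 tested genes, 515 had a lower log2 fold change. Among libraries with Y-linked transcripts the means were 140 CPM in 2 controls and 79.8 CPM in 1 knockout. Among those without, they were 167 CPM in 2 controls and 80.2 CPM in 3 knockouts. With 1 knockout in the first set, the part of sex was not tested.

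Ephrin-B2 is also a well-known gene of arterial endothelium, with EphB4 on veins, and endothelial markers are given beside it. All 8 (Pecam1, Cdh5, Kdr, Tek, Tie1, Emcn, Cldn5 and Egfl7) had a mean under 1 CPM. They summed to 1.05 to 3.79 CPM in controls and 0.568 to 1.49 CPM in knockouts. Markers of the hair follicle, where ephrins and Eph receptors are also found, summed to 3703 to 5858 CPM in controls and 4424 to 5239 CPM in knockouts. Most of that sum was the keratin genes Krt15, Krt17 and Krt79, so it says little about the scarcer markers. Of the 10 hair follicle markers, all of which had reads, Lgr5, Lrig1 and Lgr6 were called lower and 0 were called higher. Their log2 fold changes were -2.09, -0.76 and -0.69. Cd34 (-1.24) and Lhx2 (-1.03) also had lower means but were not called, and their libraries overlapped between the genotypes. Only Krt17 (0.43) and Krt79 (0.11) had a log2 fold change above 0. The part of endothelial and hair follicle cells in the Efnb2 values was not tested. In bulk RNA, fewer cells of a type and less RNA per cell cannot be told apart.

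The other lists of cell types were lower than the keratinocyte markers in every library. The 8 melanocyte and Schwann cell markers, all with reads, summed to 18.01 to 19.8 CPM in controls and 13.5 to 15.2 CPM in knockouts. Mitf, the largest part of that sum, was called lower (means 11.4 and 6.76 CPM). Tyr (2.38 and 2.93 CPM) and Pmel (3.05 and 3.28 CPM) had higher knockout means without being called, and the rest had lower ones. The 8 fibroblast markers, all with reads, summed to 178 to 255 and 249.6 to 360 CPM, nearly all of it Thy1, and Dcn was called higher at 0.663 and 1.92 CPM (means). The 8 immune markers found in the files summed to 17.1 to 51.6 and 15.0 to 40.2 CPM. The 5 muscle and pericyte markers summed to 47.8 to 55.6 and 42.1 to 54.3 CPM, most of it Cspg4 (means 49.6 and 43.4 CPM). Des was at 0 in all libraries, and Acta2 was called higher at 1.13 and 3.60 CPM (means). The part of these cells in the results was not tested.

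The 250 bases before the annotated start of Efnb2 and Epha4, the genes with the largest differences, are shown to give their regulatory context (RefSeq, GRCm38.p6, which is mm10). Capitals mark matches on either strand to the motifs searched: AP-1 (TGANTCA), an E-box (CACGTG), a GC box (GGGCGG) and a TATA box (TATAAA). None of these motifs contains another. Each stretch reads 5′ to 3′ on the minus strand and ends just before the start site.
Efnb2, chr8:8661243-8661492: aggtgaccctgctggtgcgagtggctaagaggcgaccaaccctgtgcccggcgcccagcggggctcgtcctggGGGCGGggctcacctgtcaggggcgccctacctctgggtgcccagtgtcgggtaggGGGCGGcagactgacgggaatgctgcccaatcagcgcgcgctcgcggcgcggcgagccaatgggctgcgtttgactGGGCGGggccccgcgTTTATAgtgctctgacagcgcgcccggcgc
Epha4, chr1:77515089-77515338: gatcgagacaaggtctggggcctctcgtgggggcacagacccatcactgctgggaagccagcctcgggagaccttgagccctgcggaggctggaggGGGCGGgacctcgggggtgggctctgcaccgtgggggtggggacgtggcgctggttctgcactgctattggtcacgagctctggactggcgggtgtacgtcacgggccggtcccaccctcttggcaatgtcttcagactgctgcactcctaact

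The Efnb2 stretch held 3 GC boxes and 1 TATA box, and that of Epha4 held 1 GC box. Among 32817 such stretches of all genes, 32.7% held a GC box and 12.4% a TATA box. Both were rich in G and C, at 72.0% for Efnb2 and 66.0% for Epha4, against a median of 52.4% over all stretches, and held 27 and 14 CG dinucleotides against a median of 6. Neither held AP-1 or the E-box, which 6.75% and 6.02% of all stretches held. Promoter stretches were matched for all 10 genes. In those of the other 8, GC content ran from 54.4% (Epha1) to 74.8% (Efna5), and none held AP-1, the E-box or a TATA box in these letters.

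Efnb1 encodes ephrin-B1, the other abundant ephrin-B, and lies on the X chromosome (99136130 to 99148991, plus strand). Its level was 113, 168, 150 and 149 CPM in control replicates 1 to 4 and at 142, 136, 139 and 137 CPM in knockout replicates 1 to 4. The knockout libraries lay close together, inside the wider range of the controls. The log2 fold change was -0.07 (SE 0.11). It was above 0 in 2 of the 19 alternative fits, so no direction is given. Per kb of exon, Efnb2 was at 0.437 to 0.818 times the level of Efnb1 in controls and 0.275 to 0.318 times in knockouts, and these ranges did not overlap. Per kb of coding sequence, the control medians were 149 CPM per kb for Efnb2 and 144 for Efnb1. The knockout medians were 79.2 and 133. Which gene was higher in controls thus rests on the length used.

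Of the ephrin-A ligands, Efna1 encodes the main partner of EphA2 and lies on chromosome 3, 89271733 to 89281142, minus strand. Its level was 92.1, 81.2, 58.9 and 95.2 CPM in control replicates 1 to 4 and at 125, 131, 86.7 and 72.1 CPM in knockout replicates 1 to 4. Knockout replicates 1 and 2 were above all controls, and replicates 3 and 4 were among them. The log2 fold change was 0.34 (SE 0.21). It was 0.05 when only the 5 libraries without Y-linked transcripts were fitted. Within those libraries the means were 93.6 CPM in controls and 96.7 CPM in knockouts, against 70.0 and 125 CPM in the libraries with Y-linked transcripts.

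Efna3 and Efna5 encode further lipid-anchored ligands. Efna3 ranged from 23.2 to 32.7 CPM in controls and from 23.5 to 30.6 CPM in knockouts, with a log2 fold change of 0.03 (SE 0.13) that was below 0 in 6 of 19 alternative fits, 2 of them scalings (upper quartile and library totals). Efna5 was at 39.9, 40.7, 53.8 and 41.0 CPM in control replicates 1 to 4 and at 50.7, 51.7, 43.3 and 45.2 CPM in knockout replicates 1 to 4. Control replicate 3 was the highest of the 8 libraries, and the log2 fold change was 0.12 (SE 0.11). Efna1, Efna3 and Efna4 sit side by side on the minus strand of chromosome 3 within 66.3 kb, with no other protein-coding gene between them. Their log2 fold changes were 0.34, 0.03 and -0.19 (SE 0.21, 0.13 and 0.12) in that order along the chromosome.

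Epha2 encodes the receptor best known in epidermis (chromosome 4, 141301240 to 141329384, plus strand). It had the highest CPM of the 10 genes in every library. Control replicates 1 to 4 had 298, 365, 227 and 300 CPM, and knockout replicates 1 to 4 had 403, 334, 336 and 320 CPM. The genotypes overlapped, with control replicate 3 lowest and knockout replicate 1 highest. The log2 fold change was 0.23 (SE 0.14). Epha1, whose receptor is found mainly on epithelia, ranged from 98.4 to 125 CPM in controls and from 107 to 127 CPM in knockouts, with a log2 fold change of 0.12 (SE 0.10).

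Epha4 encodes the receptor that accepts ligands of both classes (chromosome 1, 77367185 to 77515088, minus strand). Its level was 88.5, 89.2, 104 and 120 CPM in control replicates 1 to 4 and at 321, 284, 104 and 162 CPM in knockout replicates 1 to 4. Knockout replicates 1, 2 and 4 were above every control, and knockout replicate 3 was level with control replicate 3. The control mean was 100 ± 14.7 CPM and the knockout mean 218 ± 102 CPM (SD, n = 4 each). The log2 fold change was 1.12 (SE 0.33). A higher log2 fold change was found in 189 of the 13016 tested genes. Without knockout replicate 3 the log2 fold change of Epha4 was 1.35, and without knockout replicate 1 it was 0.88. In the 5 libraries without Y-linked transcripts it was 0.82 (SE 0.48).

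The spread of Epha4 within a genotype was larger than that of 91.2% of tested genes, with an SD of 0.55 on the log2 CPM scale, against a median of 0.20 over all tested genes. The SD was 0.21 among controls and 0.76 among knockouts. Among the 10 genes, Efna1 came next at 0.37 and Ephb4 had the smallest spread at 0.09, smaller than that of all but 6.2% of tested genes. Efnb2 was at 0.16.

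Ephb3 encodes a receptor of ephrin-B ligands (chromosome 16, 21204755 to 21223305, plus strand). Its level was 56.3, 50.9, 38.8 and 53.7 CPM in control replicates 1 to 4 and at 77.1, 68.6, 61.2 and 62.0 CPM in knockout replicates 1 to 4. The lowest knockout was above the highest control. The log2 fold change was 0.43 (SE 0.12), and 0.22 when the 3 libraries with Y-linked transcripts were left out. Ephb4, whose receptor binds mainly ephrin-B2, was at 105, 123, 121 and 112 CPM in control replicates 1 to 4 and at 109, 114, 104 and 106 CPM in knockout replicates 1 to 4. The genotypes overlapped, and the log2 fold change was -0.09 (SE 0.08).

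**Figure D2:**
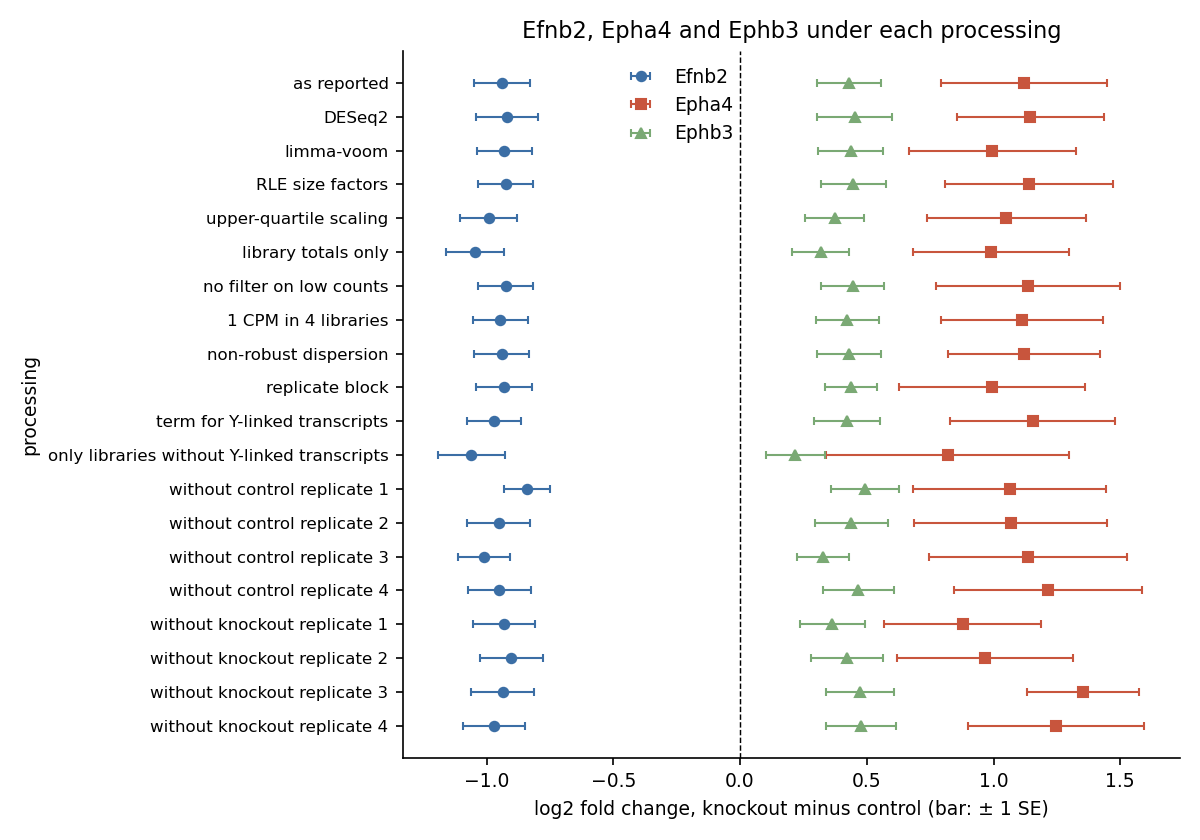
Log2 fold change (knockout minus control) of Efnb2 (circles), Epha4 (squares) and Ephb3 (triangles) as reported and under each of 19 alternative ways of processing, with bars of 1 SE. Efnb2 ranges from -1.06 to -0.84, Epha4 from 0.82 to 1.35 and Ephb3 from 0.22 to 0.49.

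**Figure D3:**
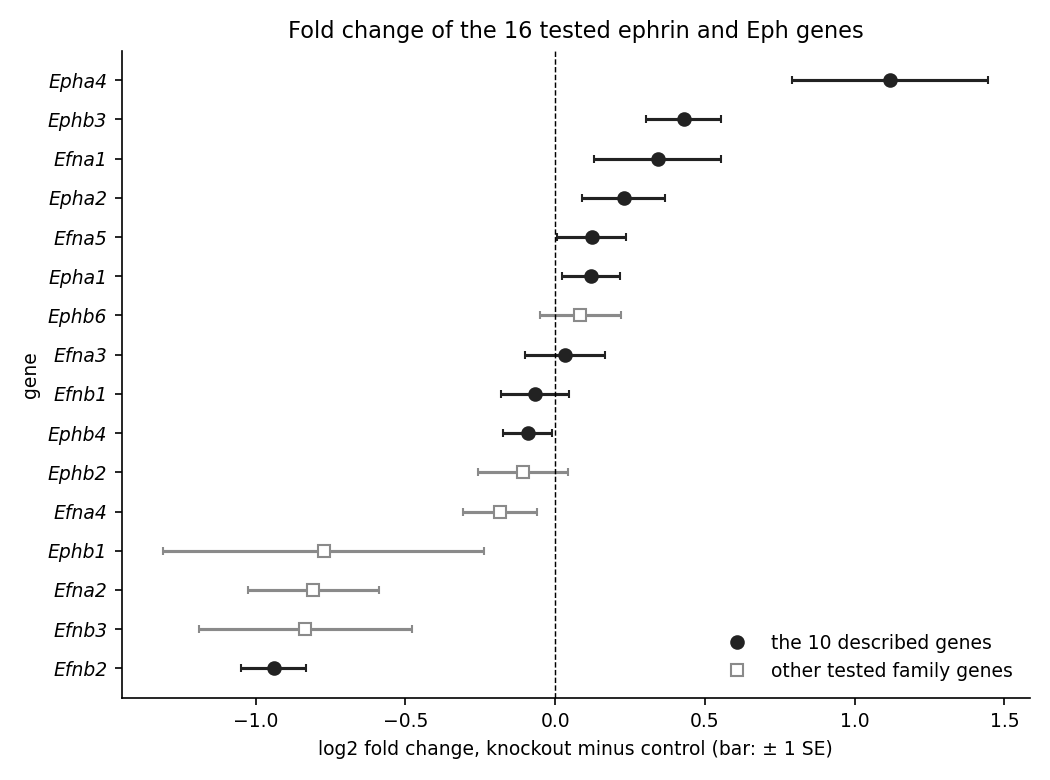
Log2 fold change (knockout minus control, edgeR) of the 16 tested ephrin and Eph genes, with bars of 1 SE. Filled circles are the 10 described genes and open squares the 6 others; Efnb2 at -0.94 and Epha4 at 1.12 lie at the ends.

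The rest of the family holds 12 further genes, of which 6 passed the filter on low counts. Efna2, an ephrin-A ligand, was lower in the knockout and the only one called, from 3.93 ± 0.267 to 2.24 ± 0.625 CPM (SD, n = 4 each, log2 fold change -0.81, SE 0.22, edgeR adjusted p = 0.04544), lower in 4 of 4 knockout libraries. That call was lost in 10 of 19 alternative fits, among them those without control replicate 1, 2, 3 or 4 and without knockout replicate 1, 2 or 4 (edgeR adjusted p from 0.05032 to 0.1316). With the libraries that had Y-linked transcripts left out, the log2 fold change was -0.61 (edgeR adjusted p = 0.2984). The 5 others did not pass: Efna4 (log2 fold change -0.19), Efnb3 (-0.83), Ephb1 (-0.77), Ephb2 (-0.11) and Ephb6 (0.08), with edgeR adjusted p from 0.1652 to 0.7344. Efnb3 and Ephb1 were scarce, at 0.394 to 1.97 and 0.0631 to 0.866 CPM. Ephb6, a receptor that lacks kinase activity, was abundant, at 184 to 279 CPM in controls and 213 to 278 CPM in knockouts. Epha3, Epha7 and Epha10 had at most 3 reads in a library. Epha5, Epha6 and Epha8 had 0 reads in all 8, which allows a level of up to 0.0838 to 0.107 CPM in a library (counting error only).

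Levels of different genes were compared per kb of exon. In controls the order of the medians was Epha2 at 63.9 CPM per kb, Efna1 at 47.3, Efnb1 at 43.3, Epha1 at 27.5, Ephb4 at 25.2, Efnb2 at 21.9, Epha4 at 12.0, Efna3 at 10.9, Efna5 at 10.1 and Ephb3 at 7.87 CPM per kb. Neighbours in this order overlapped in range except at 3 steps: Efnb1 lay above Epha1, Efnb2 above Epha4, and Efna5 above Ephb3. Ephb6, outside the 10, was at a median of 58.9 CPM per kb. In knockouts Efnb2 had rank 9 in place of 6, at 11.6 CPM per kb, beside Efna3 and Efna5, whose ranges it overlapped. Epha4 had rank 5 in place of 7, at 27.7 CPM per kb. Its knockout range of 12.9 to 39.9 CPM per kb overlapped those of Efna1, Efnb1, Epha1 and Ephb4, so this rank is not settled. The order rests on which transcript ends the cells use, which the counts do not show. Per kb of coding sequence, Efnb2 came first in controls, because 1008 of its 6855 annotated exon bases are coding, and Epha2 had rank 4.

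Summed per kb of exon over all family genes, the ephrin-B ligands were at 60.1 to 70.7 CPM per kb in controls and 50.3 to 52.9 CPM per kb in knockouts, without overlap. The ephrin-A ligands were at 63.1 to 82.4 and 68.2 to 103 CPM per kb. Efnb2 alone made up 14.9 to 19.6% of all ephrin signal per kb in controls and 7.07 to 10.5% in knockouts. These sums and shares rest on annotated exon length, and only 1008 of the 6855 exon bases of Efnb2 are coding. EphA receptors summed to 90.6 to 114 CPM per kb in controls and 112 to 157 in knockouts, of which Epha4 was 9.70 to 14.2% and 11.5 to 25.4%. EphB receptors summed to 81.4 to 107 and 91.0 to 109 CPM per kb. The EphA sum was highest in knockout replicates 1 and 2, the libraries with the most Epha4.

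**Figure D4:**
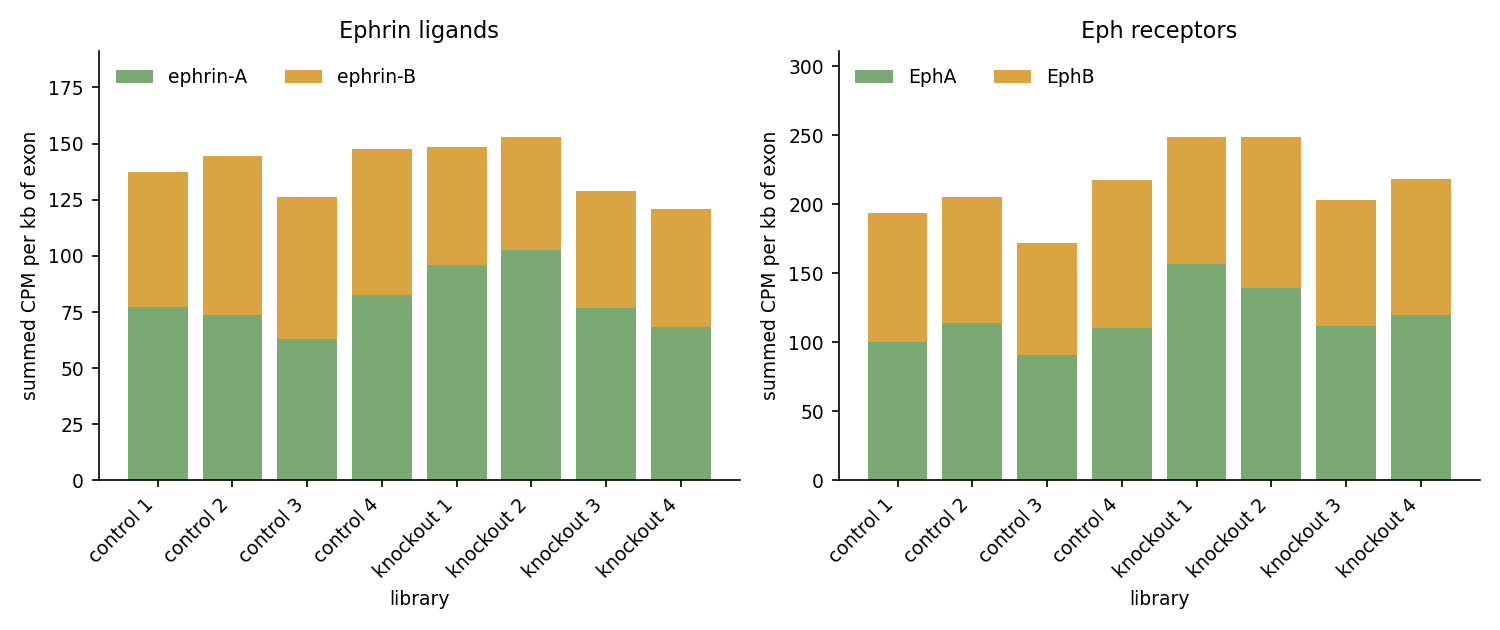
CPM per kb of exon in each library, summed over the ephrin-A and ephrin-B ligands (left) and over the EphA and EphB receptors (right), all 22 family genes included. The ephrin-B part is 60.1 to 70.7 in controls and 50.3 to 52.9 in knockouts; the EphA part is highest in knockout replicates 1 and 2, at 157 and 139.

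Libraries were next compared within genotypes, with the mean of each genotype taken out of the log2 CPM and each profile scaled to an SD of 1. On this scale a root-mean-square difference of 0 means the same profile over the 8 libraries. Efna1 and Ephb3 were the closest pair of the 10 genes, at 0.55, followed by Efnb1 and Ephb4 at 0.65. Efnb2 and Ephb4, a ligand and its receptor, were the most unlike pair at 1.90: control replicate 1 was the highest of the controls for Efnb2 and the lowest for Ephb4. Of all tested genes the nearest to Epha2, the receptor with the highest mean CPM, were Gtpbp6 (0.19), 1810032O08Rik (0.20) and Arf4 (0.24), and the nearest to Efnb1, the ligand with the highest mean CPM, were Sf3b4 (0.21), Dram1 (0.22) and Itm2c (0.23). Epha4 was added after its values were seen: nearest to it were Lrrc58 (0.11), Jak1 (0.17) and Wdfy2 (0.18). All profiles rest on the same 8 libraries, and many genes were searched, so these are descriptions.

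Shared sequence between family members could let reads of one gene count for another. Among the 45 pairs of the 10 genes, the longest identical stretch of coding sequence was 24 bases, between Epha4 and Ephb4, and the median was 11 bases. Over the 120 pairs of the 16 tested genes the longest was 38 bases, between Ephb1 and Ephb3. Both stretches are shown 5′ to 3′ from the GENCODE transcripts.
Epha4 and Ephb4, from coding base 1944 and 1953: ctgtgtggccatcaagactctgaa
Ephb1 and Ephb3, from coding base 2410 and 2437: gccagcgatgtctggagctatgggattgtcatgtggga

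Other genes overlapped some members in the annotation, and the sources used here do not say whether counting used strand. Exons of Epha1 share 236 bases (6.01% of its exon length) with Zyx on the other strand. Exons of Efna3 share 344 bases (14.1%) with the antisense gene Gm15998, and those of Ephb4 share 33 bases (0.711%) with Zan. Efna1, Efna5, Efnb1, Efnb2, Epha2, Epha4 and Ephb3 shared no exon base with another annotated gene.

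Genes that carry or trim the Eph and ephrin signal were taken as a list of 69, of which 61 were tested and Afdn was not matched by symbol. This list and the guidance list after it were drawn up with earlier results of these libraries known, so their called shares and adjusted p-values are not independent evidence. Of these, 5 were higher in the knockout, 3 were lower and 53 did not pass, so 13.1% were called against 8.87% of all tested genes, with a median log2 fold change of 0.01 against -0.02. The higher genes were Src, a kinase recruited by both partners (44.0 ± 3.48 to 61.7 ± 10.6 CPM, SD, n = 4 each), the adaptor Bcar1 (51.2 ± 9.75 to 92.0 ± 17.3 CPM) and the small GTPase Arf6 (424 ± 29.6 to 595 ± 45.1 CPM). The Rap regulator Sipa1l1 (71.0 ± 8.85 to 102 ± 10.3 CPM) and the scaffold Anks1b, at 2 to 7 reads in controls and 32 to 56 in knockouts, were also higher. The lower genes were Kalrn (12.5 ± 2.43 to 5.16 ± 1.03 CPM), the PI3-kinase subunit Pik3r1 (69.2 ± 9.22 to 50.4 ± 4.48 CPM) and Flot1 (17.9 ± 1.61 to 13.0 ± 1.10 CPM). Their edgeR adjusted p ran from 0.001185 for Anks1b to 0.03499 for Flot1. Calls for Anks1b and Kalrn held in all 19 alternative fits, whereas Src lost its call in 9, Flot1 in 11 and Pik3r1 in 7. The count of 8 fell to 5 without control replicate 2, knockout replicate 1 or knockout replicate 4, to 4 without knockout replicate 2, and to 3 when the libraries with Y-linked transcripts were left out.

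Semaphorins, plexins, netrins, Slits and Robos, other families of guidance ligands and receptors, gave a comparison list of 49 genes, of which 32 were tested. There 2 were higher and 7 lower, so 28.1% were called against 8.87% of all tested genes. The median log2 fold change was -0.22 against -0.02. As this list was also drawn up with earlier results known, its share is not independent evidence. Robo2, a receptor of Slit proteins, was lower (24.9 ± 3.19 to 6.55 ± 3.49 CPM, SD, n = 4 each, edgeR adjusted p = 0.01312), as were the ligand gene Slit3 (17.4 ± 4.24 to 8.54 ± 1.90 CPM) and the receptor gene Neo1 (95.0 ± 13.8 to 57.6 ± 9.13 CPM). Nrp1, Sema3e, Sema4g and Sema6a were the other lower genes. Slit1 was higher (2.85 ± 0.554 to 10.2 ± 2.36 CPM, edgeR adjusted p = 0.001819), as was Sema7a, named outside the rule for named genes. Slit1, Slit3, Robo2, Nrp1 and Neo1 kept their calls in all 19 alternative fits, whereas Sema7a lost its call in 7, Sema3e in 6, Sema4g in 5 and Sema6a in 4. The count of 9 was 5 without knockout replicate 1 or knockout replicate 2.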

How the data were processed

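Per library, the authors deposited raw counts by gene symbol. Per the submitters' processing notes, build mm10 was used with TopHat2 2.1.0, Trimmomatic 0.35, FastQC 0.11.4 and SAMtools 0.1.18. The counting tool, annotation and strand setting are not given in the sources used here. Closing lines were left out; reads outside genes made up 15.7 to 21.7% and ambiguous ones 0.918 to 1.11%. Knockout replicate 4 was identified by its title, as its file carries another number. Genes were filtered with edgeR's filterByExpr (13016 kept), scaled by TMM and tested with edgeR 4.0.16 (quasi-likelihood, robust, genotype as the only term, R 4.3.3), with Benjamini-Hochberg adjustment over all tested genes. The steps were also run on simulated counts that held no effect of sex, so that run says nothing about the uneven spread of sex. SE is the log2 fold change over the square root of F. DESeq2 1.42.0, limma-voom (limma 3.58.1), other scalings and filters, a replicate block, a term for Y-linked transcripts and leaving out each library were alternatives. Exon and coding lengths and loci are from GENCODE M21 (mm10), exon length being the union over transcripts. Named were the 10 genes, their family, up to 8 called genes per list by smallest adjusted p, and the 3 nearest profiles of the ligand and the receptor with the highest mean. The members and lists were chosen with earlier results of these data known. Same-numbered libraries did not deviate together (correlations across genes of -0.23 to -0.05), so they were not treated as pairs.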

Additional observations from a re-analysis of the deposited data

Results flagged for a closer look

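Among the 32 groups of 4 libraries examined for the 16 tested family genes, 1 held a library far from the other 3, where chance flags about 1 group in 20. Efna5 was at 53.8 CPM in control replicate 3 and at 39.9, 40.7 and 41.0 CPM in the other controls. Without that library the log2 fold change of Efna5 (knockout minus control) was 0.24, against 0.12 with it.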

How the results depend on the processing

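The alternatives refit the values that helped to choose the 10 genes, so for these they describe the spread over settings only. Over the 19 alternatives the log2 fold change ranged from -1.06 to -0.84 for Efnb2, from 0.82 to 1.35 for Epha4 and from 0.22 to 0.49 for Ephb3. DESeq2 called 2003 genes over all, 3 of the 10 described genes (Efnb2, Epha4, Ephb3) and 14 of the signalling list. With no filter on low counts (Efnb2, Ephb3) and with non-robust dispersion (Efnb2, Epha4), 2 of the 10 were past the threshold. With the replicate number as a block, 723 genes were called, 2 of the 10 (Efnb2, Ephb3), 0 of the other family genes and 5 of the signalling list; 0 of 4 controls correlated best with the knockout of its own number. With a term for Y-linked transcripts 0 other family genes were called. In the 5 libraries without them 383 genes, 0 other family genes and 3 signalling genes were called. Leaving out 1 library gave 462 to 1247 genes over all (550 and 769 when control replicate 2 or 4 was dropped, 718 and 462 when knockout replicate 1 or 2 was), 1 to 2 of the 10 (2, Efnb2 and Epha4, without knockout replicate 3), 0 to 1 other family genes, 4 to 11 signalling genes and 5 to 10 guidance genes. The cause of these shifts was not tested. Fits with libraries left out also rest on fewer libraries. Library totals in place of TMM moved the median log2 fold change of all genes from -0.02 to -0.13; Efnb2 was then at -1.05, Epha4 at 0.99 and Ephb3 at 0.32, while Efna3 (-0.07) and Ephb6 (-0.02) changed sign. The order of levels had 3 steps without overlap by exon length and 2 by coding length. Epha3, Epha7 and Epha10, with at most 3 reads in a library, are limited by depth. Ephb1 did not pass the filter of 1 CPM in 4 libraries and has no value there.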
